A study of Mus musculus with 3 samples.

Results

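The 40 genes studied here, whose RNA is known to be induced by interferon, were followed across 3 Affymetrix arrays of mouse bone marrow cells. The members were chosen by name: 7 interferon-inducible GTPases of the IRG and GBP families, and 33 other genes, mostly antiviral genes of the type I interferon response. Each gene was represented by the probe set that was brightest on average over the 3 arrays among those paired with 1 gene symbol. Of the 40 genes, 38 had such a probe set, out of 18193 genes measured in this way. Isg15 and Ifi44 had none and have no values here.

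The cells came from 10-week-old mice of the C57BL/6J strain and were sorted for Sca-1 and against mature lineage markers, which enriches haematopoietic stem and progenitor cells. The first array held wild type cells, the second held cells of the transgenic line labelled Tg(Ly6a-KDM1A*v2, Line 6, and the third held cells of Tg(Ly6a-KDM1A*v2, Line 3. KDM1A is the histone demethylase LSD1, and Ly6a encodes Sca-1. The construct name pairs the 2 genes, and each line is a single transgenic line. The design text speaks of 2 transgenic mice, Line 6 and Line 3. The number of mice on each array and the sex of the animals were not given in the labels. Each genotype had 1 array, so no value has a replicate error, no difference has a replicate check and no test could be made between genotypes. All 3 arrays share the strain and the Sca-1 sort, and both lines are compared with the same wild type array.

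Interferons are secreted proteins that cells release on sensing viral or bacterial products. Type I interferons act through a receptor whose signal reaches genes with a promoter element called the ISRE, by way of a factor that includes STAT2 and IRF9. Interferon gamma acts through its own receptor, and many of its target genes carry a different element called GAS. The induced genes include antiviral effectors such as the IFIT, OAS and Mx proteins, the sensors and factors of the response itself, the immunoproteasome and peptide transporter, and the IRG and GBP GTPases, which attack vacuoles that hold intracellular parasites and bacteria. In bone marrow, stem and progenitor cells respond to interferon, and Ly6a itself is an interferon-inducible gene.

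The promoters of 30 of the 40 members were in the RefSeq promoter table (GRCm38.p6). The 250 bases before each gene's start were searched on both strands for the core letters of an ISRE, GAAA followed by any 2 bases and GAAA, and for TTCNNNGAA, the letters of a GAS, with overlapping matches allowed. ISRE letters were present in 13 of the 30 member genes (43.3%) against 3.46% of 27025 genes in the table, and GAS letters in 8 of the 30 (26.7%) against 8.13%. All 5 GTPase genes with a promoter in the table (Igtp, Irgm1, Irgm2, Gbp2 and Gbp3) held ISRE letters, as did 8 of the 25 others. A match of letters is a description of the sequence and not a measured binding site. The 6 stretches below are the 120 bases before the start of 3 antiviral genes with low Line 3 values (Ifit1, Oas3 and Rsad2) and of 3 GTPase genes. They were picked as genes of both kinds that hold such letters. Oasl2, also low in Line 3, has a promoter in the table and held neither kind of letters. Iigp1 and Gbp6, the GTPase genes with the largest differences from wild type, have no promoter in it. Capitals mark ISRE and GAS letters on either strand.
Ifit1: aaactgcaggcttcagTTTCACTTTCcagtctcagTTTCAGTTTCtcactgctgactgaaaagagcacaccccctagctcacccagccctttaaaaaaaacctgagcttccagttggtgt
Oas3: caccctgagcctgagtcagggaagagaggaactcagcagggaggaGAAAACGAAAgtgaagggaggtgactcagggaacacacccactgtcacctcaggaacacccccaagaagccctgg
Rsad2: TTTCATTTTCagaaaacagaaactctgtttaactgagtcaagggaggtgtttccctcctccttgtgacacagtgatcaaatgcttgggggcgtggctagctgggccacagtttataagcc
Gbp2: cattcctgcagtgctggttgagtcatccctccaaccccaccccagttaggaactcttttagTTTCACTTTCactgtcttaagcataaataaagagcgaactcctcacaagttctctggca
Igtp: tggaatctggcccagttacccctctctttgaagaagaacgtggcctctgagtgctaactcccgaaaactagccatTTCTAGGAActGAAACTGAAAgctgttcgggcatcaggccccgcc
Irgm2: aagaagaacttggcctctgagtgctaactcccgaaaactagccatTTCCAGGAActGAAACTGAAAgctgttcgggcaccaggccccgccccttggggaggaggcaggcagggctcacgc

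In GRCm38.p6 these stretches lie at chr19:34640769-34640888 on the plus strand for Ifit1, chr5:120777660-120777779 on the minus strand for Oas3 and chr12:26456453-26456572 on the minus strand for Rsad2. Those of the GTPase genes, all on the plus strand, lie at chr3:142620543-142620662 for Gbp2, chr11:58199436-58199555 for Igtp and chr11:58214857-58214976 for Irgm2. Ifit1 has 2 runs of ISRE letters, which begin 104 and 85 bases before the start, both on the opposite strand. Gbp2 has 1 run, 59 bases before the start and also on the opposite strand. Igtp and Irgm2 share an arrangement in which GAS letters (45 and 75 bases before the start) are followed by ISRE letters (34 and 64 bases before the start). Among the 28 measured genes with a promoter in the table, the 12 with ISRE letters had median differences from wild type of 0.17 in Line 6 and 0.15 in Line 3 on the log2 scale used below, and the 16 without had 0.17 and 0.10. The 8 with GAS letters had medians of 0.21 in each line, with 6 above 0 in Line 6 and 8 in Line 3. The 20 without had 0.16 and -0.11, with 11 and 9 above 0. Of all genes, 55.2% lay above 0 in Line 6 and 54.0% in Line 3. Centring each array on its median put the Line 6 median of all genes at -0.19. Irgm2, Oas1a and Irf1, which hold GAS letters, then fell below 0 in Line 6. Igtp, Psmb8 and Bst2, which hold them too, stayed above it. In Line 3, Irgm2 was -0.02 after cyclic loess. The genes with GAS letters include Igtp and Irgm2 of the GTPases, so the split by letters overlaps that by family. The part of the letters in these differences was not tested.

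Intensities on the 3 arrays were on a common scale, with trimmed means of 497 on each. The medians of the wild type, Line 6 and Line 3 arrays were 96.2, 116 and 99.0, and 22.5% to 24.4% of probe sets lay below 16, where no detection call separates signal from background. Kdm1a read 2104, 2575 and 2979 in wild type, Line 6 and Line 3, and whether its probe set reads the transgene was not tested. Of 9 haematopoietic progenitor markers, 1 was past 2-fold on the higher side in Line 6 and 3 in Line 3 (sums 20111, 22738 and 23916). Of these, Kit (603, 899 and 923) and Cd34 (971, 1838 and 2315) lay above the array medians, Slamf1 (25.0, 51.1 and 31.6) lay below them, and Ptprc ran the other way (-0.41 and -0.89). Ly6a was not measured here. Markers of other cell types differed between the arrays. Of 10 neutrophil markers, 4 were at least 2-fold lower in Line 6 and 6 in Line 3, with summed intensities of 113010, 76477 and 64428 in wild type, Line 6 and Line 3. On the deposited scale, Elane (9377, 9082 and 10689) and Mpo (15770, 15952 and 16895) of that list were level in Line 6. Both were slightly higher in Line 3 (0.19 and 0.10). Tissue macrophage markers past 2-fold on the higher side were 7 of 10 for Line 6 and 8 of 10 for Line 3, with sums of 10772, 15327 and 18004. Adgre1 differed less (0.52 and 0.19). Csf1r, the brightest of that list, read 7100, 5825 and 6468 and was slightly lower in both lines (-0.28 and -0.13). B cell markers past 2-fold on the higher side were 7 of 9 for Line 6 and none for Line 3 (sums 3518, 10771 and 3865). For plasmacytoid dendritic cells they were 1 of 8 and none (sums 4854, 8648 and 5984). No marker of these 4 lists read below 16 on any array. Endothelial markers past 2-fold on the higher side numbered 5 of 10 in each line (sums 1850, 3207 and 3426), and mast cell and basophil markers 1 of 9 in Line 6 and 6 of 9 in Line 3. The T and NK cell list had 1 of 8 higher, in Line 3, and the erythroid list had 1 of 7 lower, also in Line 3. The RNA of the inactive X, Xist, read 2729, 6152 and 5155, and the Y-linked Eif2s3y read 2325, 978 and 1031. Both lay above the array median on all 3 arrays, and the labels do not say whether an array held RNA of more than 1 mouse. The part of sex in the differences below was not tested. In such bulk samples fewer cells of a type and less RNA per cell cannot be told apart.

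The interferon-inducible genes did not move as a block on the transgenic arrays. Among the GTPases, Iigp1 and Gbp6 were higher in both lines, with Gbp6 inside 2-fold under each other scaling. Among the antiviral genes, Oas3, Ifit1 and Oasl2 were lower in Line 3. Differences are of log2(intensity + 16), which understates changes of dim genes, and a gene is counted as higher or lower when it differed by 2-fold or more, a difference of 1 or more. In Line 6, 2 of 38 genes (5.26%) were at least 2-fold higher than wild type, where 3.73% of all 18193 genes were, and none was 2-fold lower, where 3.21% of all genes were. In Line 3, 2 of 38 (5.26%) were higher, against 3.80% of all genes, and 3 (7.89%) were lower, against 4.82%. These shares are near the background, so the counts are no result about the set as a whole. The 38 genes had median differences of 0.16 (Line 6) and 0.14 (Line 3), beside 0.04 over all genes in each line. After centring each array on its median, the Line 6 median was -0.07, beside -0.19 over all genes. Genes with a mean level at or above the median of all genes had medians of 0.05 (Line 6) and 0.12 (Line 3) on the deposited scale.

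The split of higher and lower genes moved with the scaling. In Line 6 the 2 higher and 0 lower genes became 1 and 1 after quantile normalization and after cyclic loess, and 1 and 4 after centring each array on its median. Centring moved the median difference of all genes in Line 6 by -0.24 on the log2 scale, and that between the lines by 0.20. In Line 3 the 2 higher and 3 lower genes became 1 and 3 under each of the 3 scalings. Shares of all genes past 2-fold under these scalings were not computed, so these counts have no background beside them. Of the 38 genes, 32 had a mean level at or above the median of all genes. Among these 32, none was 2-fold higher in either line, where 1.26% (Line 6) and 2.30% (Line 3) of the 9097 genes of that brightness were. None of the 32 was lower in Line 6 and 3 were lower in Line 3, against 1.89% and 3.58% of those genes.

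**Figure D1:**
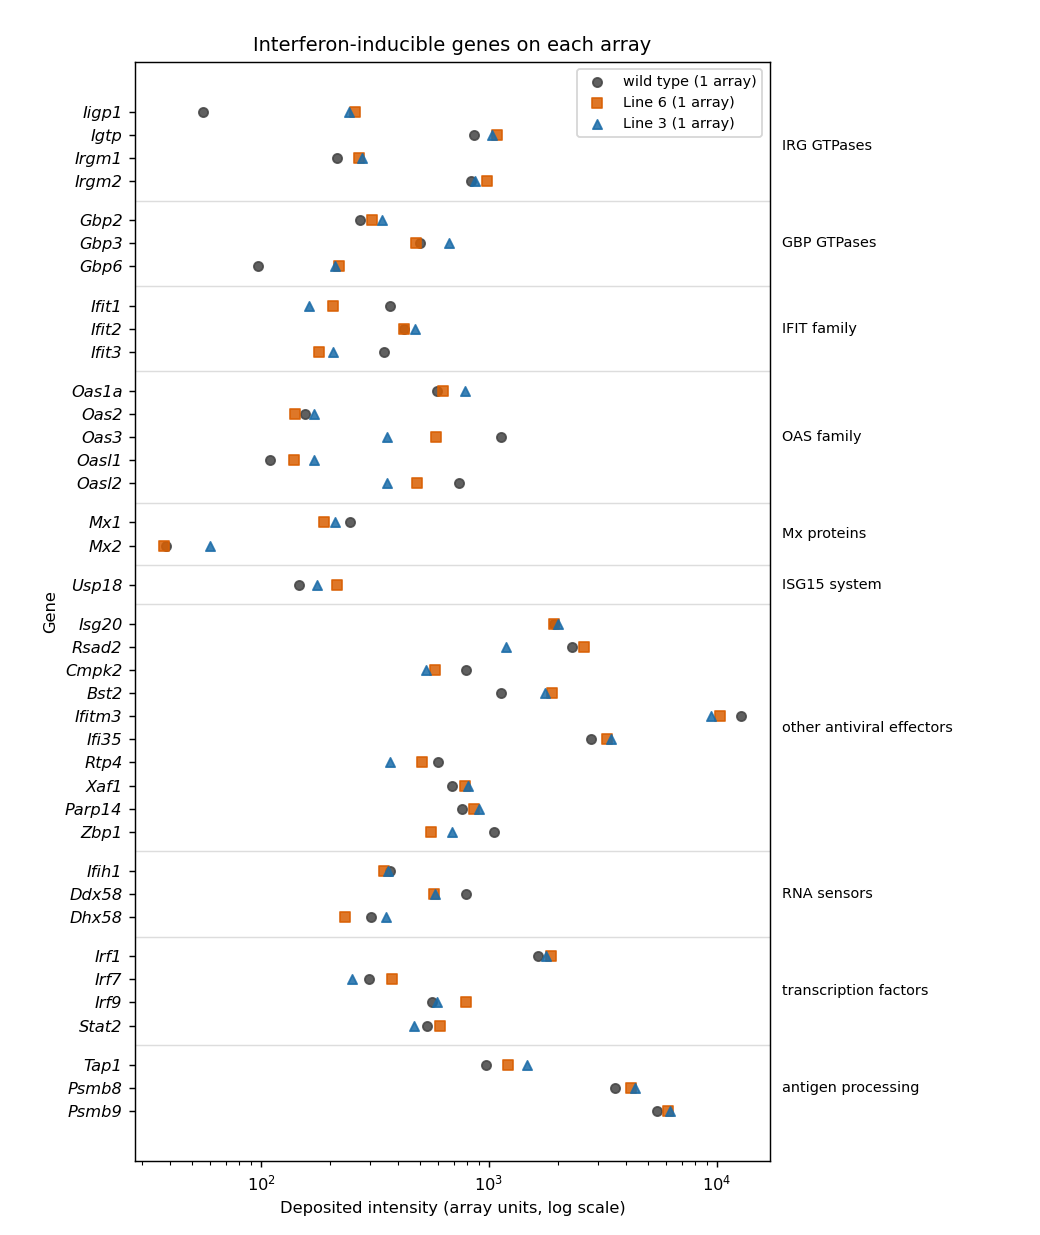
Deposited intensity (log axis, array units) of the 38 measured genes on the wild type, Line 6 and Line 3 arrays, 1 point per array and no error because each genotype had 1 array. Iigp1 read 55.9 in wild type against 257 and 242 in the lines, while Oas3 read 1134 in wild type against 583 and 357.

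The IRG GTPases attack the membranes of pathogen vacuoles or regulate that attack. Iigp1 (Irga6), an effector of this family, read 55.9 on the wild type array, 257 for Line 6 and 242 for Line 3. Wild type was the low array and the 2 lines were close together. The differences were 1.93 in Line 6 (3.80-fold higher) and 1.85 in Line 3 (3.59-fold), which ranked 41 and 39 from the top among 18193 genes. The gene is dim in wild type, so its size depends on the constant added before the logarithm: the Line 6 difference was 2.18 with a constant of 1 and 1.42 with 64. The second Iigp1 probe set was dimmer, at 33.5, 71.1 and 85.5, and gave 0.82 and 1.04.

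The other 3 IRG genes differed little from wild type. Igtp (Irgm3), a regulator that guards host membranes, read 858, 1086 and 1029.8 in wild type, Line 6 and Line 3. Irgm1, a regulator of the same kind with a known role in haematopoietic stem cells, read 216, 269.5 and 276. Wild type was the lowest array for both genes, and their differences lay between 0.26 and 0.33. Irgm2, the gene next to Igtp, read 838, 985 and 868, and its differences of 0.23 and 0.05 turned to -0.01 in Line 6 after centring and to -0.02 in Line 3 after cyclic loess.

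GBP proteins are large GTPases that coat and break open pathogen vacuoles. Gbp6 read 96.7 on the wild type array, 219 for Line 6 and 210.3 for Line 3, so that both lines were high. Its differences of 1.06 and 1.01 lay just past 2-fold, and each was inside 2-fold after quantile normalization, centring and cyclic loess. A dimmer Gbp6 probe set read 28.1, 94.0 and 129, with larger differences of 1.32 and 1.71. Gbp2 read 271, 307 and 339.9, with differences of 0.17 (turning to -0.06 after centring) and 0.31. Gbp3 read 499, 479 and 665, which set only Line 3 apart (-0.06 and 0.40).

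The 7 GTPases had a median difference of 0.30 for Line 6 and 0.33 for Line 3, which stayed above 0 under each scaling (down to 0.06 in Line 6 after centring). On the deposited scale 6 of 7 lay above 0 in Line 6 and 7 of 7 in Line 3, where 55.2% and 54.0% of all genes did. After centring, which put the Line 6 median of all genes at -0.19, 4 of 7 did in Line 6. After cyclic loess 6 of 7 did in Line 3. The 2 genes past 2-fold, Iigp1 and Gbp6, were the 2 dimmest of the 7 and the only ones whose mean level lay below the median of all genes. Tissue macrophage markers other than Csf1r, with list sums given above, were higher on the same arrays, and their part in these differences was not tested.

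**Figure D2:**
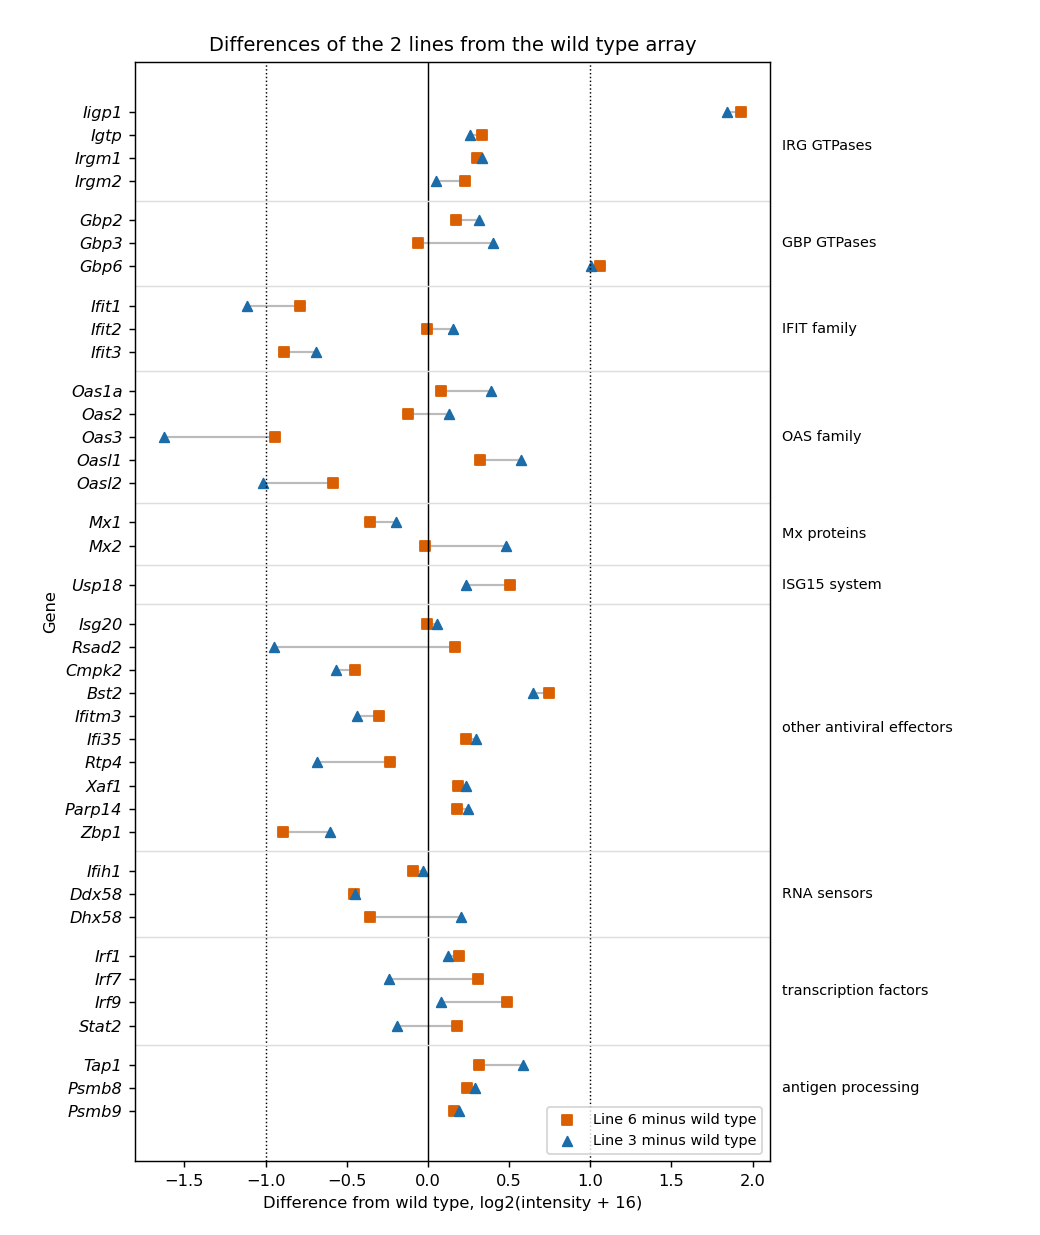
Difference from wild type on the log2(intensity + 16) scale for Line 6 (squares) and Line 3 (triangles), 1 row per gene, with dotted lines at the 2-fold limits of -1 and 1. Iigp1 and Gbp6 lie past the upper limit in both lines on the deposited scale, and Oas3, Ifit1 and Oasl2 lie past the lower limit in Line 3.

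IFIT proteins bind viral RNA and block its translation. Ifit1, which recognises RNA whose cap lacks methylation, read 369 on the wild type array, 206 for Line 6 and 162 for Line 3. Wild type was the high array, and the differences were -0.79 and -1.11, the second past 2-fold except with a constant of 64 (-0.94). Ifit3 read 345, 179 and 207, again with wild type high and both lines lower by less than 2-fold (-0.89 and -0.69). Its Line 6 difference was past 2-fold after quantile normalization (-1.06), centring (-1.12) and cyclic loess (-1.08). Ifit2 read 426, 424 and 475, so that the lines lay at the wild type level or above it (-0.01 and 0.15). Ifit2 and Ifit3 are neighbours in the genome and still differed in this way.

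The OAS enzymes make an oligoadenylate messenger that activates RNase L on sensing double-stranded RNA. Oas3, the sensor of long double-stranded RNA, read 1134 on the wild type array, 583 for Line 6 and 357 for Line 3. The 3 arrays were well separated, with wild type high and Line 3 low. The differences were -0.94 and -1.63 (3.09-fold lower in Line 3), and the latter ranked 226 from the bottom of 18193 genes. It lay between -1.70 and -1.51 over the other scalings, probe set choices and constants. Oasl2, an OAS-like protein that promotes RNA sensing, read 736, 485 and 356 (-0.59 and -1.02), the second inside 2-fold with a constant of 64 (-0.93).

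The rest of the OAS family did not follow Oas3. Oas1a, an active synthetase, read 594, 629 and 783, and its differences were 0.08 (-0.15 after centring) and 0.39. Oas2, the gene next to Oas3, read 155, 141 and 171 (-0.12 and 0.13). Oasl1, which represses translation of Irf7, read 109, 140.1 and 169.9 and was higher in both lines by less than 2-fold (0.32 and 0.57). The medians of the 5 genes were -0.12 for Line 6 and 0.13 for Line 3.

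Mx proteins are dynamin-like GTPases that trap viral particles. Mx1, whose protein is disabled by a deletion in most laboratory strains including C57BL/6, read 245, 188 and 212 in wild type, Line 6 and Line 3 (-0.36 and -0.20). Mx2 was dim on every array, at 38.3, 37.6 and 59.8. Usp18, the protease that removes ISG15 from proteins and dampens the receptor, read 146, 215 and 175, so both lines were higher by less than 2-fold (0.51 and 0.24).

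Among the other antiviral effectors, Rsad2 set the 2 lines apart. Rsad2 encodes viperin, an enzyme that makes a chain-terminating nucleotide. It read 2313 on the wild type array, 2599 for Line 6 and 1189 for Line 3, so that Line 3 alone was low on this probe set. The differences from wild type were 0.17 (-0.07 after centring) and -0.95, and Line 3 lay -1.12 from Line 6 (2.17-fold lower), or -0.92 after centring. Between the lines Rsad2 was the 1 member past 2-fold in the lower direction, where 3.06% of all genes were, and no member was past 2-fold in the higher direction, where 1.52% were. Its mean level lay above the median of all genes, and 0.846% of genes of that brightness were lower by 2-fold. Of the 38 genes, 21 lay above 0 between the lines, where 50.9% of all genes did. Markers at least 2-fold lower between the same arrays were 7 of 9 for B cells, 3 of 10 for neutrophils and 2 of 8 for plasmacytoid dendritic cells. They were 2 of 9 for mast cells and basophils (with 4 higher), 1 of 8 for T and NK cells and 1 of 7 for erythroid cells. The part of these cell types in the Rsad2 difference was not tested.

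Cmpk2, the gene next to Rsad2 and a mitochondrial nucleotide kinase, read 793, 577 and 529.6 (-0.45 and -0.57), so that both lines were lower than wild type. Zbp1, a sensor of Z-form nucleic acid, read 1051, 558 and 686 (-0.89 and -0.60). Rtp4, an interferon-inducible protein that binds viral RNA, read 599.9, 508 and 368 (-0.23 and -0.68). All 3 lay below wild type in both lines by less than 2-fold on these probe sets, with Zbp1 in Line 6 past it after centring (-1.13). Dimmer probe sets turned 2 of these directions: that of Zbp1 gave -0.23 and 0.04, and that of Rtp4 gave 0.39 and -0.02.

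Bst2, or tetherin, which holds budding virus on the cell surface and also marks plasmacytoid dendritic cells, read 1124 on the wild type array, 1895 for Line 6 and 1768 for Line 3. It had the largest difference on the higher side outside the GTPases in each line, at 0.74 and 0.65. The summed plasmacytoid dendritic cell markers were 4854, 8648 and 5984 on the same arrays. The 8 markers had median differences of 0.76 in Line 6 and 0.08 in Line 3, and their part was not tested. Ifitm3, a membrane protein that blocks viral fusion, was the brightest member, with a mean level above 99.4% of genes, and read 12709, 10314 and 9383 (-0.30 and -0.44).

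Isg20, an RNA exonuclease, read 1932, 1926 and 2011 and was level on the deposited scale (-0.24 in Line 6 after centring). Ifi35 (2794, 3288 and 3435), a binding partner of NMI, had differences of 0.23 and 0.30, the first of which was -0.0027 after centring. Xaf1, an antagonist of the apoptosis inhibitor XIAP, read 689, 786 and 812, and Parp14, a mono-ADP-ribosyl transferase, read 758, 862 and 904. Differences of the latter pair lay between 0.18 and 0.25, and in Line 6 both were slightly below 0 after centring.

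The cytosolic RNA sensors were at or below wild type in Line 6. Ddx58, encoding RIG-I, read 794, 575 and 577 (-0.46 and -0.45), with both lines lower on its other 2 probe sets as well. Ifih1, encoding MDA5, read 369, 346 and 361 (-0.09 and -0.03). Dhx58, encoding LGP2, read 304, 234 and 353, which put Line 6 below wild type and Line 3 above it (-0.36 and 0.20). A second Dhx58 probe set of like brightness put Line 3 below wild type (-0.38), so the Line 3 direction is not settled.

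On the deposited scale, the transcription factors of the response were slightly higher in Line 6 and mixed in Line 3. Irf9, the DNA-binding part of the factor that type I interferon activates, read 561, 794 and 594 (0.49 and 0.08, the latter -0.01 after cyclic loess). Irf7, the factor that amplifies interferon production, read 298, 374 and 250.1 (0.31 and -0.24). Stat2 read 537, 609 and 468 (0.18, or -0.06 after centring, and -0.19), and a second probe set gave 0.21 and 0.09. Irf1, a factor that acts early in the interferon gamma response, read 1633, 1869 and 1779 (0.19, or -0.04 after centring, and 0.12). In each of the 4, Line 6 was the highest array on the deposited scale and none differed by 2-fold between any pair of arrays.

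On the deposited scale, the antigen processing genes were slightly above wild type in both lines on their brightest probe sets. Psmb8 and Psmb9, catalytic subunits of the immunoproteasome, read 3565, 4214 and 4362 and 5445, 6092 and 6208. Their differences lay between 0.16 and 0.29, with that of Psmb9 in Line 6 at -0.07 after centring. Tap1, a subunit of the peptide transporter, read 974, 1214 and 1468 (0.31 and 0.58). A dimmer Tap1 probe set read 177, 137 and 56.5 and went the other way (-0.33 and -1.41), and the 2 dimmest Tap1 probe sets read below 20 on every array.

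Outside the GTPases, the 31 measured genes had medians of -0.0045 (Line 6, or -0.24 after centring) and 0.08 (Line 3). Of the 31, 15 lay above 0 in Line 6 (7 after centring) and 17 in Line 3. On the deposited scale 55.2% and 54.0% of all genes did, and after centring the median of all genes in Line 6 was -0.19. The 3 genes past 2-fold lower in Line 3, Oas3, Ifit1 and Oasl2, were all lower in Line 6 too, by less than 2-fold on the deposited scale, with Ifit1 (-1.03) and Oas3 (-1.18) past it after centring. Both sets of values rest on the same wild type array. Neutrophil markers other than Elane and Mpo were lower on the same arrays. The list had sums of 113010, 76477 and 64428, and its part was not tested.

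Probe sets of the same gene did not always run together. The 38 genes had 59 probe sets, and 15 genes had more than 1. Of 21 dimmer probe sets, 13 had the sign of the brightest one in Line 6 and 14 in Line 3. Rsad2 was below wild type in Line 3 on each of its 3 probe sets (-0.95, -1.18 and -1.53). In Line 6 the same probe sets gave 0.17, 0.05 and -0.59, the last reading 526, 344 and 172, so that Line 6 was low there too. Members of the IFIT, OAS and GBP families have close relatives in the genome, so a probe set could read more than 1 of them, and probe sequences were not used here.

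**Figure D3:**
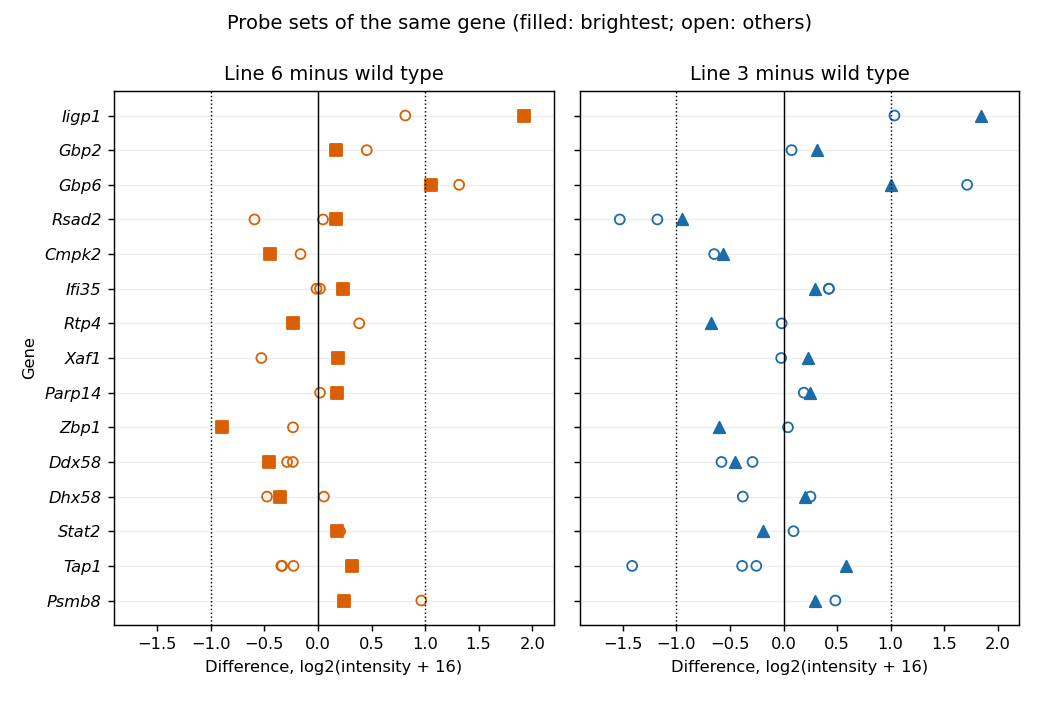
Difference from wild type on the log2(intensity + 16) scale for each probe set of the 15 genes that have more than 1, Line 6 on the left and Line 3 on the right, with the brightest probe set filled and the others open. The probe sets of Iigp1, Gbp6 and Ddx58 lie on 1 side of 0 in both panels, while those of Tap1 lie on both sides.

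Other genes of the interferon pathway were taken from separate lists. Of 10 measured receptor and JAK-STAT genes, none was 2-fold from wild type in either line. The interferon gamma receptor chain Ifngr2 read 1908, 1274 and 1129 (-0.58 and -0.75), and Ifnar1, a chain of the type I receptor, read 699, 438 and 589 (-0.66 and -0.24). These 2 chains were lower in the lines by less than 2-fold. The other chains lay nearer wild type: Ifngr1 read 2047, 1927 and 2279 (-0.09 and 0.15), and Ifnar2 read 3613, 3185 and 3394 (-0.18 and -0.09). The 10 genes had medians of -0.13 (-0.37 after centring) and 0.04. Of 7 other IRF genes and IRF2-binding proteins none was past 2-fold, and of 11 sensing pathway genes none was either. The sensing genes had medians of 0.12 (-0.12 after centring) and 0.15. On the deposited scale 55.2% (Line 6) and 54.0% (Line 3) of all genes lay above 0. Of the 11 sensing genes 8 did in each line. After centring 2 did in Line 6, beside a median of all genes of -0.19. The lowest, the adaptor gene Myd88, read 1183, 735 and 629 (-0.68 and -0.90). The highest, the RNA receptor gene Tlr3, read 126, 207 and 223 (0.65 and 0.75).

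RNA of 4 of the 6 measured interferon genes was near the floor. Ifnb1, Ifna2, Ifna4 and Ifnab all read below 16 on every array, and Ifng read 70.5, 45.7 and 54.9. Ifna1 was the brightest of the 6, at 125, 104 and 82.8 (-0.24 and -0.51). None of the 6 measured interferon genes was 2-fold from wild type in either line.

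Of 13 other listed GTPases of the IRG and GBP families, 5 were measured. They had median differences of 0.32 and 0.24, with none past 2-fold. Gbp8 read 64.8, 122 and 127 (0.77 and 0.83), and Gbp7 read 950.2, 1187 and 1125 (0.32 and 0.24). Ifi47 had differences of 0.16 and 0.50. Irgc read 63.8, 72.4 and 47.2 and was lower in Line 3 (0.15 and -0.34). Gbp2b, with the largest Line 6 difference of the 5 (0.78), read below 16 on every array. After centring, 3 of the 5 lay above 0 in each line. The 12 class I antigen processing genes outside the members had medians of 0.07 (-0.17 after centring) and 0.14, with none past 2-fold. Nlrc5, the class I transactivator, read 693, 1116 and 1064 (0.67 and 0.61).

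Among 45 other interferon-inducible genes outside the members, Slfn1 stood furthest from wild type. Slfn1, a growth-regulating Schlafen gene, read 4362 on the wild type array, 1250.4 for Line 6 and 364 for Line 3. The 3 arrays were far apart, with differences of -1.79 and -3.53 (3.46-fold and 11.5-fold lower), and Line 3 lay -1.74 from Line 6. It was the only one of the 45 past 2-fold in Line 6, where 3.21% of all genes were lower. In Line 3, 5 of the 45 were at least 2-fold lower, beside 4.82% of all genes.

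The other 4 of these were Slfn2, Ifit1bl1, Ifi204 and Ms4a4c. Slfn2, which keeps T cells and monocytes quiescent, read 5223, 3229.7 and 2139 (-0.69 and -1.28). Ifit1bl1, a relative of Ifit1, read 233, 160.3 and 57.3 (-0.50 and -1.76). Ifi204, a DNA-sensing protein of the p200 family, read 239, 198 and 108 (-0.25 and -1.04), and Ms4a4c read 1399, 886 and 647 (-0.65 and -1.09). In all 4 genes the order was wild type, Line 6, Line 3. Neutrophil marker sums had the same order, while Elane and Mpo of that list did not. The part of these cells was not tested.

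On the higher side, 2 of the 45 were past 2-fold in Line 3, against 3.80% of all genes. Lgals3bp, a secreted scavenger receptor protein, read 861, 1595 and 2199 (0.88 and 1.34). Oas1b was dim, at 23.3, 27.6 and 76.8 (0.15 and 1.24), and lay 1.09 higher in Line 3 than in Line 6. The medians of the 45 genes were -0.07 and -0.03.

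**Figure D4:**
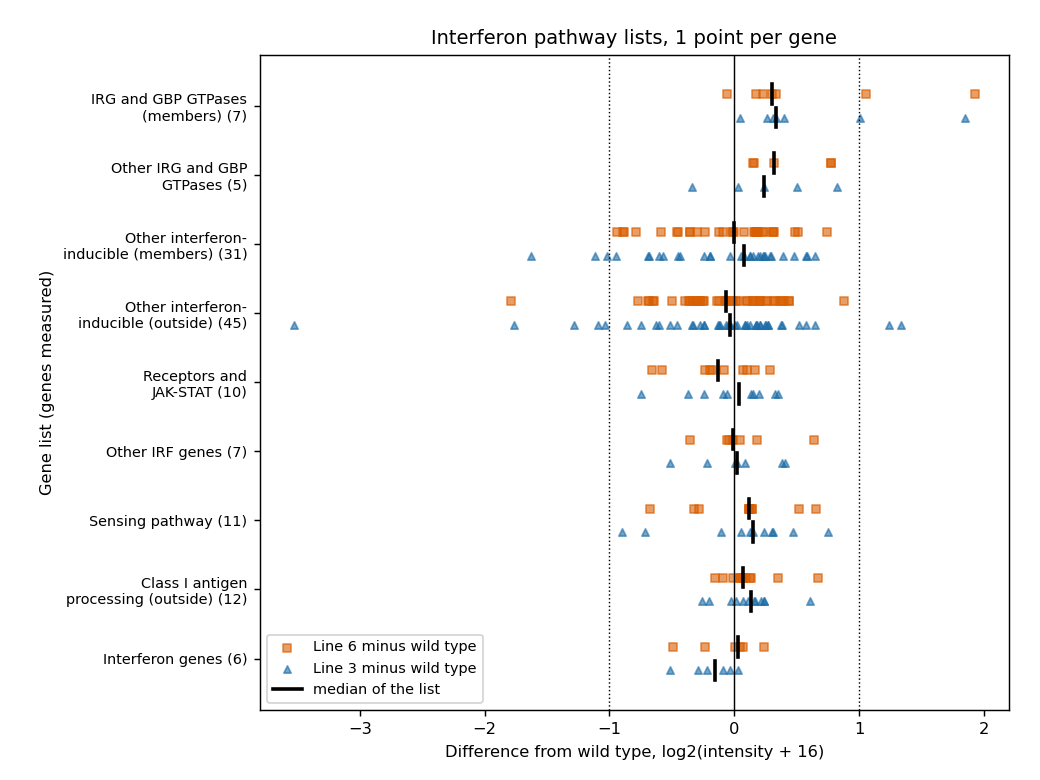
Difference from wild type on the log2(intensity + 16) scale, 1 point per gene, for the members and the other interferon pathway lists, with Line 6 as squares, Line 3 as triangles, black bars at the list medians and dotted lines at -1 and 1. The medians of all lists lie between -0.15 and 0.33, and the lowest point is Slfn1 in Line 3 at -3.53. Centring each array turns the Line 6 medians of the sensing, class I and interferon gene lists below 0, with that of all genes at -0.19.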

How the data were processed

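The deposited values are intensities, 1 per probe set and array, on a scale that the authors set (the values have nearly equal means after trimming 2% at each end). Neither the summarisation method nor the program is given in the sources used here. RNA was amplified with the Ovation Pico WTA System before labelling, per the labels' protocols. Of 45037 probe sets, 34945 had 1 gene symbol in the platform annotation, 932 had several and 9160 were not listed. Symbols were updated through Entrez identifiers, of which 34741 matched the gene table (GRCm38.p6). Intensities were transformed as log2(intensity + 16), with no filter on low values. The 2-fold calling step was run on simulated data with raised and lowered genes. Such a run does not measure the spread between animals. The number of arrays limits the precision, and with 1 array per genotype there is no standard error or p-value.

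The members and lists were chosen with earlier results of these data known. Members were named in full when at least 2-fold apart between any 2 arrays or among the 4 brightest of their role group. From other lists, genes past 2-fold in both lines or between the lines were named, and some further genes were chosen after their values were seen. Alternatives were quantile normalization, centring, cyclic loess, the median of all probe sets, plain _at probe sets, constants of 1 and 64, a filter at the median of gene means, and limits of 1.5-fold and 3-fold. Python 3.11.15, numpy 2.4.6, pandas 2.3.3, matplotlib 3.10.9, R 4.3.3 and limma 3.58.1 (scaling only) were used.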

Additional observations from a re-analysis of the deposited data

Results flagged for a closer look

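Rsad2 lay on opposite sides of wild type in the 2 lines (0.17 in Line 6 and -0.95 in Line 3 on the log2 scale) and differed between them by -1.12. With 1 array per line, the difference was not tested. The opposite signs were lost in Line 6 after centring (-0.07), with the median of the Rsad2 probe sets (-0.15), and on 1 of the dimmer probe sets (-0.59).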

How the results depend on the processing

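No paired analysis was possible because each genotype had 1 array. The count of members at least 2-fold higher than wild type, 2 in each line, was 1 in each line after quantile normalization, centring and cyclic loess, with a constant of 64 and at a 3-fold limit, and 0 with the filter on mean level. With plain _at probe sets, which 29 of the members have, it was 1 in Line 6. The count of lower members in Line 6, 0 on the deposited scale, was 1 after quantile normalization and cyclic loess, 4 after centring and 5 at a 1.5-fold limit. In Line 3 the 3 lower members were 1 with a constant of 64 and at a 3-fold limit, and 7 at a 1.5-fold limit. Between the lines the 1 lower member was 0 after centring and at a 3-fold limit, and 2 at a 1.5-fold limit. Shares of all genes were taken only on the deposited scale at the 2-fold limit, with and without the filter. Counts under the other settings therefore have no background beside them. The filter leaves fewer genes, and the other causes were not tested.

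The median difference of the GTPases in Line 6 (0.30) was 0.064 after centring and 0.18 after cyclic loess, and that in Line 3 (0.33) was 0.23 after cyclic loess. Between the lines it turned from -0.05 to 0.080, 0.15 and 0.068 after quantile normalization, centring and cyclic loess. For the other 31 genes the median was -0.24 in Line 6 after centring. In Line 3 it turned from 0.08 to -0.031, both under the filter and when probe sets were summarised by their median. Between the lines it went from 0.05 to 0.25 after centring and to -0.071 when probe sets were summarised by their median. Of 8 member differences past 2-fold, all 8 kept their sign under the other scalings, probe set choices and constants. Only 2 stayed past 2-fold in all of those settings: Iigp1 and Oas3 in Line 3. The filter on mean level removes Iigp1 and Gbp6, and Oasl2 has no plain _at probe set.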

Other observations

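Genes that lie side by side in the annotation gave unlike values in several cases. Oas2 and Oas3 have no protein-coding gene between them, and their Line 3 differences from wild type were 0.13 and -1.63. Oasl1 and Oasl2 are likewise adjacent, and their Line 3 differences were 0.57 and -1.02, with 0.32 and -0.59 in Line 6. By contrast Psmb8, Tap1 and Psmb9, which neighbour each other, lay within 0.19 to 0.58 of wild type in Line 3 on their brightest probe sets. Each of these values comes from 1 array per genotype.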
